A study of Mus musculus with 18 samples.

Results

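Chimeric reads that join a microRNA (miRNA) to its RNA target were described for 7 genes of the actin cytoskeleton in mouse thymocytes: Actb, Actg1, Tmsb4x, Tmsb10, Pfn1, Cfl1 and Coro1a. They were chosen by name as genes of actin filaments and their turnover, with earlier results of these data known. Every chimeric read on the gene's strand within its RefSeq span (GRCm38.p6) was counted in 12 libraries. The 7 genes are among 17560 genes with at least 1 such read, and they held 2030 of the 1190995 chimeric reads. Their strand came from a RefSeq promoter table, except for Actb, whose 1321 reads all lay on the minus strand.

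The assay was miR-eCLIP: Argonaute 2 (Ago2), the protein that carries miRNAs, is crosslinked to RNA with 254 nm UV light and immunoprecipitated (IP), and each miRNA is joined to the RNA fragment beside it. Total thymocytes came from 6-week-old mice kept under SPF conditions. The wild type was C57BL/6. The knockout was B6.Mirc14tm1.1Ankr, titled miR181a/b-1-KO, a mouse line without the Mir181a-1 and Mir181b-1 genes. Each genotype had 3 libraries of the Ago2 IP and 3 enriched for miR-181, with miR181-5p given as the IP target and called enriched here, and 6 input samples were not analysed here. The deletion is in the germline, so it is not limited to thymocytes. No label says that libraries of a group came from separate animals, so every p-value measures the spread between these libraries, which may be technical.

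Libraries held between 6832 and 293149 chimeric reads, and the 3 enriched knockout libraries were the smallest (12186, 19264 and 6832). Values are given as reads per 1000000 chimeric reads of the library (rpm). The deleted Mir181a-1 and Mir181b-1 loci had 0 reads in all 6 knockout libraries, while each wild-type Ago2 IP library held 363 to 545 at the former and 136 to 237 at the latter. All 10 thymocyte markers had reads in both wild-type groups, 11232 to 13410 rpm per library in sum, and 9 of 10 did in each knockout group, 10246 to 14344 rpm. Of 5 thymic epithelial markers, Foxn1, Psmb11, Krt5 and Krt8 were at 0 in every library and the list had 1 read in all. B cell, macrophage and erythroid lists had at most 16 reads per group. Of the 3 fibroblast and endothelial markers, Col1a1 and Pdgfra were at 0 and all reads were at Pecam1. It had 246 to 305 rpm in wild-type and 378 to 458 rpm in knockout Ago2 IP libraries, and 77.1 to 98.9 and 259.6 to 328 rpm after enrichment. Its part in the results was not tested. Enriched knockout libraries 2 and 3 were not shown to differ beyond sampling noise (chi-square over 150 genes, p = 0.172), while other pairs of libraries of a group did. They were kept as separate samples, and fits with both summed as 1 sample are named where they are used.

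Actin polymerises into the filaments that drive cell shape, migration and the contact between a T cell and the cell that presents antigen to it. Small proteins bind a pool of actin monomers that feeds filament growth, while other proteins sever old filaments or bind their sides. In the cytoplasm, a miRNA guides Ago2 to messenger RNAs mainly through its seed, bases 2 to 8 counted from the 5′ end. miR-142 is known for its high level in blood cells, miR-181 for its high level in immature thymocytes, and let-7 for a large family that shares a seed.

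In the 7 genes, 81 miRNA names occurred, of which 65 had a mature sequence in the RefSeq table (GRCm38.p6), covering 2006 of the 2030 reads. The sequences below, with the seed in capitals, are of miRNAs from some of the families named in the results, and are not a ranking by reads. The first 3 belong to the let-7 family and share the seed GAGGUAG, and the miR-181 pair shares ACAUUCA, so that members of a family can be told apart only by their other bases.
let-7a-5p: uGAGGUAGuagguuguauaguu
let-7d-5p: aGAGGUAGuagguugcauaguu
let-7f-5p: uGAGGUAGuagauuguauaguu
miR-142a-3p: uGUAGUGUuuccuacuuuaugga
miR-181a-5p: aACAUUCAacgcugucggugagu
miR-181b-5p: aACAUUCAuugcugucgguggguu
miR-16-5p: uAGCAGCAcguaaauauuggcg
miR-103-3p: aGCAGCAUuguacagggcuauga

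By seed, miR-181-5p (a, b, c and d) had 783 of the 2030 reads, most of them from the enriched libraries, let-7 with miR-98 had 600 and miR-142a-3p had 338. The miR-15/16 family (seed AGCAGCA) had 65 reads, the miR-17/20/93 family (seed AAAGUGC) 52, and the pair miR-103 and miR-107 (seed GCAGCAU) 19.

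The 2 actins differed widely in their number of contacts. Actb, which encodes beta-actin, spans chr5:142903115-142907976 on the minus strand and held 1321 reads, 65.1% of those in the 7 genes. Actg1, which encodes gamma-actin, spans chr11:120345687-120348495 on the minus strand and held 124. Per kb of span, these were 272 and 44.1 reads. Spans include introns, since the table used holds no exons, and whether a contact lay in an exon, an intron or a UTR was not analysed here. Cytosolic actins and several of their partners have near-identical copies and pseudogenes. How the authors placed reads that fit several loci is not given in the sources used here, so that a division of reads between Actb and Actg1 is uncertain.

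The wild-type Ago2 IP libraries held 252, 147 and 73 Actb reads, which correspond to 2138, 2128 and 1659.7 rpm. In the knockout Ago2 IP it held 166, 162 and 140 reads, or 2731, 2395 and 2687 rpm. By its reads it ranked 24 among 10345 protein-coding genes with reads in the former group and 10 among 9845 in the latter. In the wild-type enriched libraries it had 141, 137 and 68 reads (481, 540.4 and 349 rpm), and in the knockout enriched libraries 14, 14 and 7 reads (1149, 727 and 1025 rpm). No library of a group overlapped with any library of another group in rpm. In the gene-level comparisons below that use all miRNAs, groups did not overlap for 25.9% to 53.4% of the genes tested.

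The other 6 genes had far fewer reads in each library. Actg1 had 9, 5 and 3 reads (wild type) and 3, 2 and 4 reads (knockout) in Ago2 IP libraries, and 28, 38 and 21 against 1, 8 and 2 in enriched ones. Its group means were 72.3 ± 4.08, 51.9 ± 23.7, 118 ± 28.5 and 263 ± 169 rpm in that order (SD, n = 3 each). The groups of wild type did not overlap, nor did they for 53.4% of the genes tested. Its site with most reads, chr11:120346407-120346528 (720 to 841 nt from the 3′ end of the span), held 48 reads, of which 35 came from enriched wild-type libraries, all 35 of them with miR-181. Outside Actb, miR-181 made up 98.98% of all reads of those libraries, so that 35 of 35 is near the share over all other reads.

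**Figure D1:**
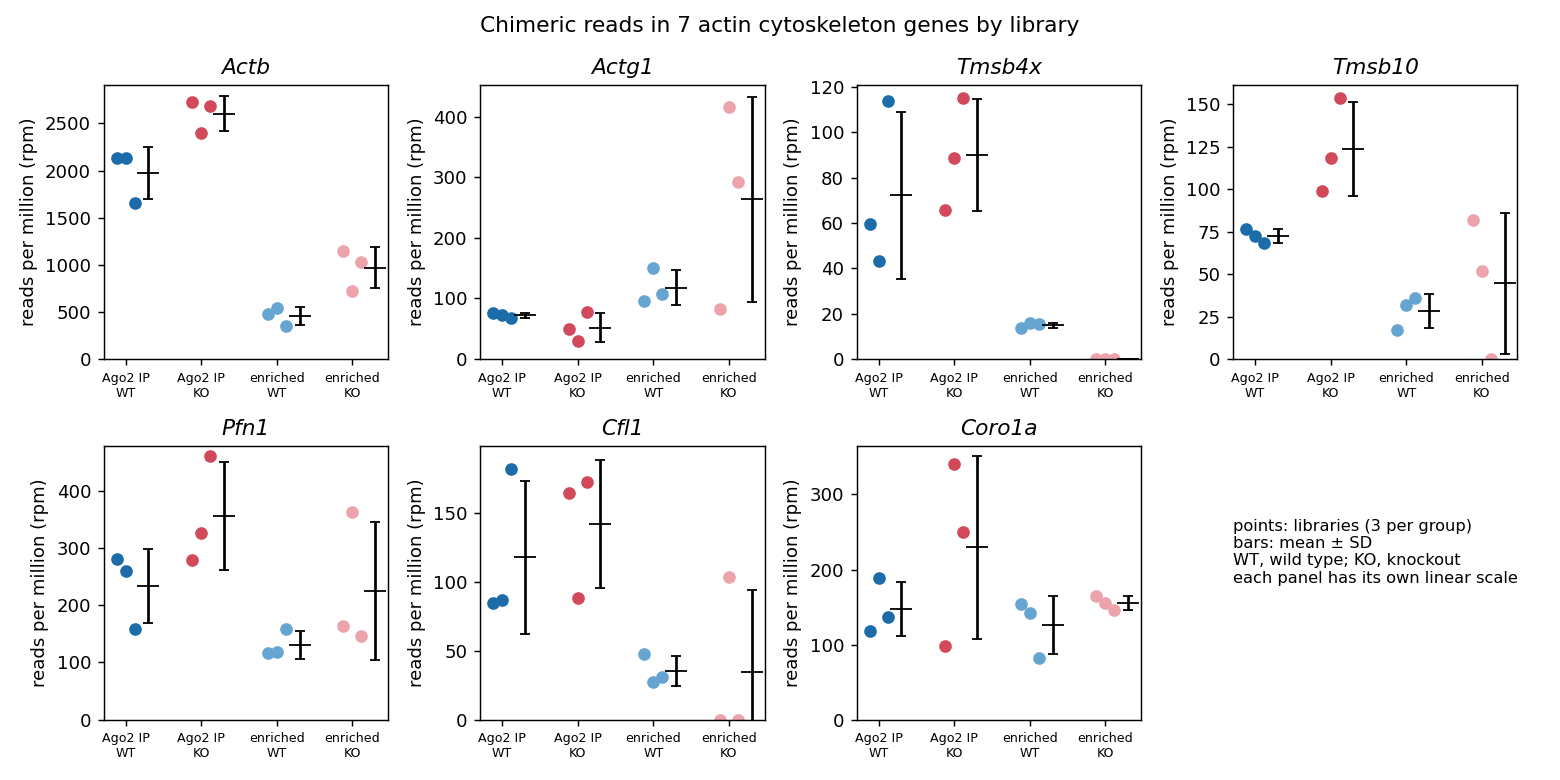
Chimeric reads per 1000000 (rpm, linear scale, a different one in each panel) in the 7 genes, with a point for each of the 3 libraries of a group and the mean ± SD beside them; bars are cut at 0. Actb lies between 1659.7 and 2731 rpm in the Ago2 IP and between 349 and 1149 rpm after enrichment, while Actg1 is at 95.5 to 149.9 rpm in the wild-type enriched libraries and at 68.2 to 76.4 rpm in the wild-type Ago2 IP.

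Of the monomer-binding genes, Pfn1 encodes profilin, which loads actin monomers onto growing filament ends. It spans chr11:70651844-70656799 (minus strand) and held 226 reads. Ago2 IP libraries had 33, 18 and 7 of them (wild type) and 17, 22 and 24 (knockout), and enriched ones 34, 30 and 31 against 2, 7 and 1. Its means were 233 ± 64.9, 355 ± 94.1, 131 ± 24.3 and 225 ± 120 rpm. Tmsb4x and Tmsb10 encode beta-thymosins, small proteins that hold actin monomers out of filaments. Tmsb4x (chrX:167207093-167213479, minus strand) held 42 reads, with 72.2 ± 36.8, 89.9 ± 24.7 and 14.9 ± 1.14 rpm in the wild-type Ago2 IP, the knockout Ago2 IP and the wild-type enriched libraries. It had 0 reads in all 3 knockout enriched libraries, where 3 reads would be 156 to 439 rpm, so that a level like that of the other groups was not detectable at this depth. Tmsb10 (chr6:72957347-72958748, minus strand) held 61 reads, with 76.4, 72.4 and 68.2 rpm (wild type) and 98.7, 118 and 154 rpm (knockout) in the Ago2 IP, and 17.1, 31.6 and 36.0 rpm in wild type after enrichment. Its enriched knockout libraries had 1, 1 and 0 reads. The 2 genotypes did not overlap in the Ago2 IP, nor did they for 25.9% of the genes tested. Tmsb10 itself had too few reads to be tested there.

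Of the genes of filament turnover, Cfl1 encodes cofilin, which severs actin filaments, and spans chr19:5490455-5494031 on the plus strand. It held 78 reads, with means of 118 ± 55.5, 142 ± 46.3, 35.4 ± 10.8 and 34.6 ± 59.9 rpm, and in the last group all of its 2 reads came from library 2. Coro1a encodes coronin 1A, an actin-binding protein of blood cells, and spans chr7:126699774-126704816 on the minus strand. It held 178 reads, with 119, 188 and 136 rpm (wild type) and 98.7, 340.0 and 249.5 rpm (knockout) in the Ago2 IP, and 153.5, 142 and 82.2 against 164, 156 and 146 rpm after enrichment. Its Ago2 IP groups overlapped, and knockout library 1 was the lowest of all 6. Per kb of span, Pfn1 had 45.6, Actg1 44.1, Tmsb10 43.5, Coro1a 35.3, Cfl1 21.8 and Tmsb4x 6.58 reads over all libraries. Pfn1, Actg1 and Tmsb10 were thus close to each other, and Actb was well above all 6.

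Reads were joined into a site where neighbouring positions on a strand lay at most 20 nt apart over the 12 libraries. The 7 genes held 111 sites, and the 11 with at least 30 reads held 1603 reads, 79.0% of those in the 7 genes. Actb had 5 of these sites, Coro1a 3, Pfn1 2 and Actg1 1, and Tmsb4x, Tmsb10 and Cfl1 had none. In Actb the 5 sites held 94.5% of the gene's reads and in Pfn1 the 2 sites held 88.9%, against 59.6% in the 3 sites of Coro1a and 38.7% in the site of Actg1. The largest site had 28 reads in Cfl1, 22 in Tmsb10 and 11 in Tmsb4x. Distances are counted from the 3′ end of the span.

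The 5 Actb sites lay between 757 and 2543 nt from the 3′ end. The largest, chr5:142904342-142904794, was 453 nt wide, lay 1227 to 1679 nt from the end and held 811 reads at 254 positions. The next, chr5:142904070-142904246, was 177 nt wide, lay at 955 to 1131 nt and held 291 reads at 106 positions. The other 3 held 80 reads (chr5:142905210-142905466, 2095 to 2351 nt), 35 reads (chr5:142903872-142903939, 757 to 824 nt) and 31 reads (chr5:142905566-142905658, 2451 to 2543 nt). There were 0 reads in the 130, 95 and 415 nt between the first 4 of these sites along the gene, and 2 reads in the 99 nt between the last pair. A further 8 reads lay within 500 nt past the 3′ end of the span.

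**Figure D2:**
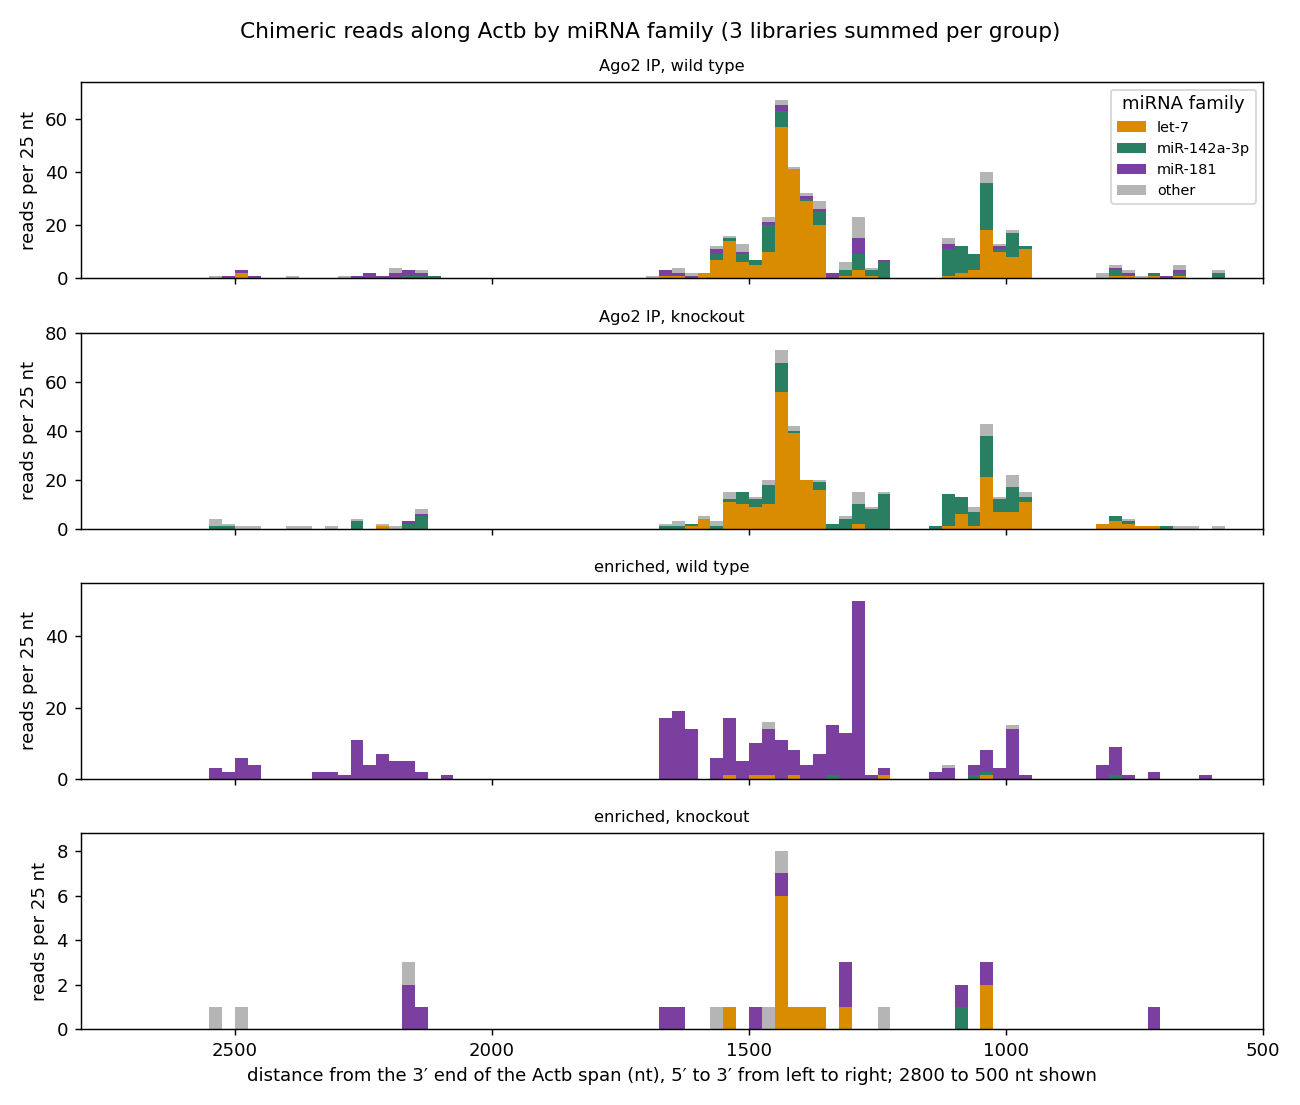
Chimeric reads along Actb in bins of 25 nt, by distance from the 3′ end of the span (nt), with the 3 libraries of each group summed and the bars stacked by miRNA family. In both Ago2 IP groups the highest bin is at 1425 to 1449 nt and is mostly let-7 (57 and 56 let-7 reads), while in the wild-type enriched libraries the highest is at 1275 to 1299 nt, with 50 miR-181 reads.

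At Actb, let-7 was the leading family in the Ago2 IP, in contrast to the rest of the same libraries. In wild-type libraries it took 52.4%, 59.9% and 53.4% of Actb reads and 11.4% to 11.7% of all others. In knockout libraries it took 48.2%, 54.9% and 52.9%, against 15.6% to 17.1% elsewhere. Each of the 6 libraries was far above its own remainder. Over them, the mean share was 53.6% in Actb and 13.9% in the rest, 39.7 percentage points higher (SD 5.56, exact two-sided sign-flip permutation test p = 0.0313, adjusted p = 0.0417 over 8 tests). This is the smallest p that 6 libraries can give. A high let-7 share was not particular to Actb. In Coro1a the mean let-7 share was 41.4% ± 7.58 (SD, wild type) and 48.0% ± 1.93 (knockout) of Ago2 IP reads. The rest of those libraries had 11.6% and 16.4%, with no test. These Coro1a shares rest on 33 and 42 reads. In wild-type library 1, miR-181 had 6 and let-7 had 5 of 14 Coro1a reads.

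miR-142a-3p came next at Actb, and its share of all Actb reads lay below that of the rest of the library. Wild-type libraries had 25.8%, 19.7% and 26.0% of it among Actb reads, knockout ones 36.1%, 27.2% and 35.7%. The rest of those libraries had 26.7% to 28.1% and 38.4% to 40.4%. The mean difference was -5.15 points (SD 4.71), with 0 of 6 libraries higher (exact permutation p = 0.0313, adjusted p = 0.0417). It was small in wild-type library 3, at 26.0% against 26.7%. The direction depends on whether let-7 reads are counted. With let-7 reads left out of Actb and of the rest, an alternative chosen after the data were seen, miR-142a-3p made up 54.2%, 49.2% and 55.9% of the other Actb reads in wild type and 69.8%, 60.3% and 75.8% in the knockout. The rest of those libraries then had 30.3% to 31.7% and 46.3% to 47.9%. Its share was thus higher in Actb in 6 of 6 libraries, by 21.6 points (SD 6.00, exact permutation p = 0.0313, adjusted p = 0.0938 over 6 tests).

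miR-181 and the miR-15/16 family took smaller shares at Actb than elsewhere. In the wild-type Ago2 IP miR-181 made up 9.28% ± 0.478 of Actb reads and 31.2% of the rest, and in the knockout 0.41% ± 0.713 and 1.39% (SD, n = 3). miR-15/16 made up 1.96% at Actb and 5.59% in the rest over the 6 libraries. Both were lower in all 6 libraries, with mean differences of -11.4 and -3.63 points, each at an exact permutation p of 0.0313 and an adjusted p of 0.0417. With let-7 reads left out the differences were -7.54 points for miR-181, lower in 5 of 6 libraries, and -2.40 points for miR-15/16, lower in all 6 (exact permutation p = 0.0625 and 0.0313), and neither passed (adjusted p = 0.0938 each). For miR-18 the 0.75% at Actb and 1.19% elsewhere did not pass (exact permutation p = 0.125, adjusted p = 0.143), and with let-7 reads left out it was 0.239 points higher in Actb. The miR-17/20/93 family, not among the tests, was at 2.16% ± 0.716 (wild type) and 0.888% ± 0.775 (knockout) of Actb reads, against 10.1% and 14.3% elsewhere. Shares of a gene sum to the whole, so these differences depend on each other, and all 8 tests were chosen after the values were seen.

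**Figure D3:**
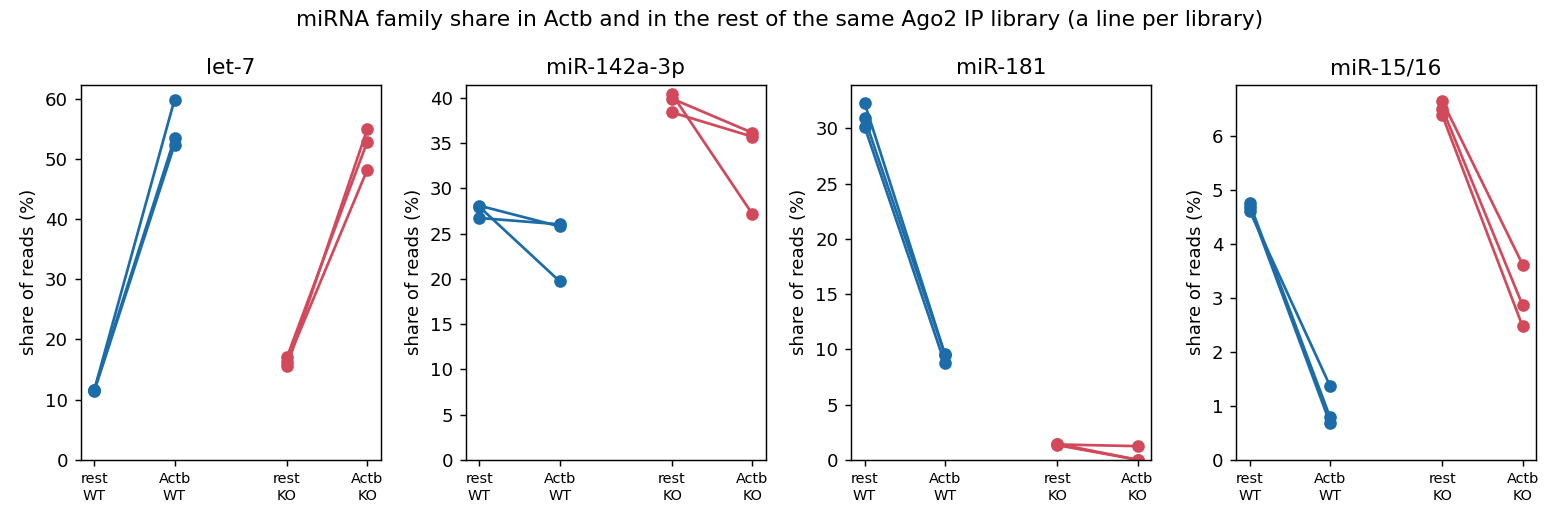
Share of reads (%) of 4 miRNA families in Actb and in the rest of the same Ago2 IP library, with a line for each of the 3 wild-type (WT) and 3 knockout (KO) libraries. All 6 let-7 lines rise, from 11.4% to 17.1% in the rest up to 48.2% to 59.9% in Actb, and the lines of the other 3 families fall; shares are of all reads, let-7 included.

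Seen from the side of the miRNAs, Actb held 0.939% ± 0.168 of all let-7 reads (wild type) and 0.824% ± 0.0171 (knockout) in the Ago2 IP (SD, n = 3). It held 0.169% ± 0.0240 and 0.219% ± 0.0506 of miR-142a-3p reads. Neither difference between genotypes passed (exact permutation p = 0.4 and 0.3, adjusted p = 0.4 over 3 tests, where 0.1 is the smallest that 3 against 3 can give). Of all miR-181 reads it held 0.0589% ± 0.0085 before and 0.0442% ± 0.0102 after enrichment in wild type (exact permutation p = 0.2, adjusted p = 0.4). Even in the knockout enriched libraries, 13 of the 35 Actb reads were let-7, on average 38.1% ± 8.25 (SD, n = 3), against 5.18% of the rest of those libraries.

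The 2 large Actb sites differed in their shares of let-7 and miR-142a-3p. At the 453-nt site let-7 had 64.5%, 70.4% and 68.9% of reads in the wild-type libraries of the Ago2 IP and 58.2%, 66.7% and 67.1% in the knockout ones. At the 177-nt site it made up 43.7%, 53.3% and 33.3%, and 40.0%, 42.5% and 42.5%. The 2 ranges did not overlap, and let-7 was higher at the 453-nt site in 6 of 6 libraries, by 23.4 points (SD 6.69, exact sign-flip permutation p = 0.0313, adjusted p = 0.0417). For miR-142a-3p the order was turned. It had 18.4%, 13.3% and 11.1% (wild type) and 31.6%, 21.2% and 25.6% (knockout) at the 453-nt site, and 45.1%, 40.0% and 61.1%, and 44.0%, 45.0% and 52.5% at the 177-nt site. Its share was lower at the former in all 6 libraries (-27.7 points, SD 12.3, exact permutation p = 0.0313, adjusted p = 0.0417). Among reads other than let-7 the difference was -25.1 points and did not pass (exact permutation adjusted p = 0.0938). At the 177-nt site miR-142a-3p and let-7 were near each other, with 116 and 107 of 249 reads, and let-7 was the higher of the pair in wild-type library 2.

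**Figure D4:**
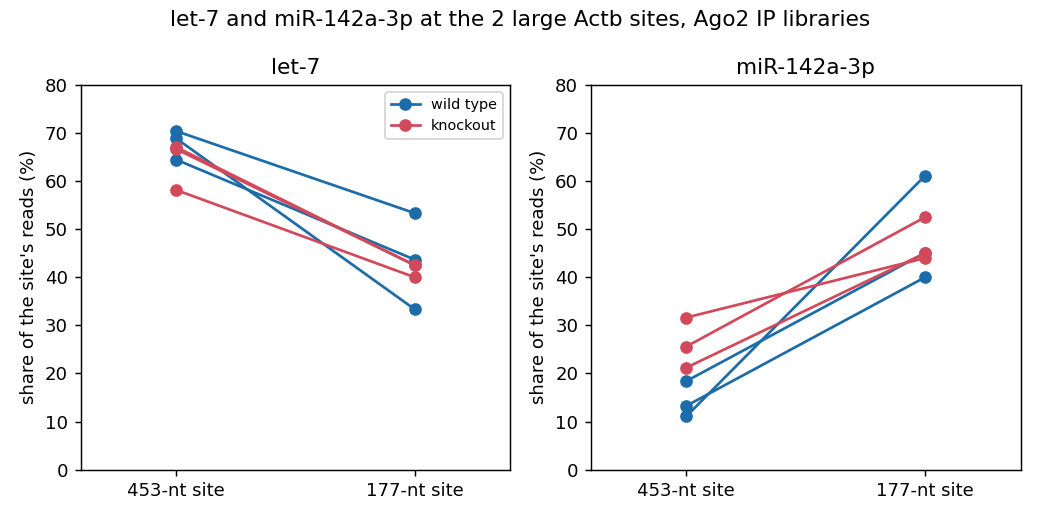
Share (%) of let-7 (left) and miR-142a-3p (right) among Ago2 IP reads of the 453-nt and the 177-nt Actb site, with a line for each of 3 wild-type and 3 knockout libraries. let-7 falls from 58.2% to 70.4% at the 453-nt site to 33.3% to 53.3% at the 177-nt site, and miR-142a-3p rises in all 6 lines.

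Within Actb, let-7 contacts were the most concentrated. The 50-nt window with most let-7 reads, chr5:142904512-142904561 (1397 to 1446 nt from the 3′ end), held 218 of 502 Ago2 IP reads (43.4%). For miR-142a-3p the best window, chr5:142904121-142904170, lay in the 177-nt site and held 47 of 267 reads (17.6%). After enrichment in wild type the best miR-181 window, chr5:142904389-142904438 (1274 to 1323 nt), held 63 of 332 reads (19.0%). It lay in the same 453-nt site as the let-7 window and did not overlap it. In its part at 1275 to 1299 nt there were 31, 10 and 9 miR-181 reads in the 3 libraries and no let-7 read, and 6 miR-181 and 3 let-7 reads in the wild-type Ago2 IP.

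The let-7 names at the 2 sites differed somewhat. At the 177-nt site let-7a-5p had 46 of 107 let-7 reads, 43.0% (95% Wilson interval 34.0% to 52.5%), against 24.6% of all other let-7 reads. At the 453-nt site it had 23.9%, with 21.0% let-7f-5p and 18.1% let-7d-5p. These percentages sum both genotypes. By library let-7a-5p had 16 of 31, 10 of 16 and 4 of 6 let-7 reads at the 177-nt site in wild type, and 4 of 20, 5 of 17 and 7 of 17 in the knockout, without overlap and with no test. The higher share at this site thus came mostly from wild-type libraries. How often let-7 names at other sites show no overlap was not counted. let-7a-5p and let-7f-5p differ by only 1 base. Intervals here cover counting error alone, as reads with the same position and miRNA may be copies of 1 molecule. At Actb, 5.71% to 12.1% of reads per group repeated the position and miRNA of another.

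The 3 smaller Actb sites had few Ago2 IP reads and a different makeup. At chr5:142905210-142905466, miR-142a-3p had 13, miR-181 11 and miR-15/16 5 of 36 Ago2 IP reads, and let-7 had 1. By genotype, miR-181 had 9 of 16 wild-type and 2 of 20 knockout reads there. At chr5:142903872-142903939 let-7 had 9 and miR-142a-3p 5 of 21 reads, and at chr5:142905566-142905658 the 14 reads were divided among miR-15/16, miR-181, let-7 and others. After enrichment in wild type, 40 of 40, 13 of 14 and 15 of 15 reads of these 3 sites were miR-181, near its 98.98% of those libraries outside Actb.

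In Pfn1, the larger site (chr11:70651913-70652220, 69 to 376 nt from the 3′ end) held 152 reads at 105 positions. Its 80 Ago2 IP reads were divided among let-7 (21), miR-142a-3p (15), miR-181 (13), miR-103 with miR-107 (10) and miR-15/16 (7). By genotype, miR-181 had 13 of 41 wild-type and 0 of 39 knockout reads. The smaller site (chr11:70652788-70652889, 944 to 1045 nt) held 49 reads and had a narrower makeup, with miR-15/16 in 13 and miR-142a-3p in 10 of its 28 Ago2 IP reads, and let-7 in 1. Of the 13 miR-15/16 reads, 12 were miR-16-5p. All 10 miR-103 and miR-107 reads of Pfn1 in the Ago2 IP lay in the larger site.

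In Coro1a, the makeup of the 3 sites was unlike. At chr7:126700782-126700914 (1008 to 1140 nt from the 3′ end) let-7 had 26 of 32 Ago2 IP reads (81.3%, Wilson interval 64.7% to 91.1%), and no enriched wild-type library had a read there. At chr7:126700373-126700469 (599 to 695 nt) miR-181 had 22 of 22 wild-type enriched reads. In the Ago2 IP it had 5 of 5 wild-type and 0 of 2 knockout reads there. At chr7:126699775-126699910, which starts at the last base but 1 of the span, miR-181 had all 31 wild-type enriched reads. In the Ago2 IP this last site had only 10 reads, with miR-142a-3p in 4. There miR-181 had 2 of 3 wild-type and 0 of 7 knockout reads. The 22 and 31 enriched reads are near the library-wide share of miR-181, so they do not tell these sites apart by family. In the Ago2 IP, a miR-181 count depends on how many reads of a site came from the knockout. Of the 31 reads, 30 were miR-181b-5p (96.8%, Wilson interval 83.8% to 99.4%), in 11 of 12, 11 of 11 and 8 of 8 reads of the 3 libraries. In the wild-type enriched libraries miR-181b-5p made up 18.3% of all other miR-181 reads. At this site 12 of the 31 reads were repeats, and 15 of its 43 reads over all libraries lay at the position chr7:126699775.

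The share of miR-181b-5p among miR-181 reads after enrichment in wild type varied between sites and genes. It was 10 of 15 at the Actb site chr5:142905566-142905658 (66.7%, Wilson interval 41.7% to 84.8%) and 12 of 20 in Tmsb10 (60.0%, interval 38.7% to 78.1%). It was 52 of 208 at the 453-nt Actb site (Wilson interval 19.6% to 31.3%), 22 of 93 in Pfn1 and 12 of 87 in Actg1 (13.8%, interval 8.07% to 22.6%). Tmsb4x had 10 miR-181 reads, all of them miR-181a-5p. These sites were singled out after their values were seen, with no test.

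**Figure D5:**
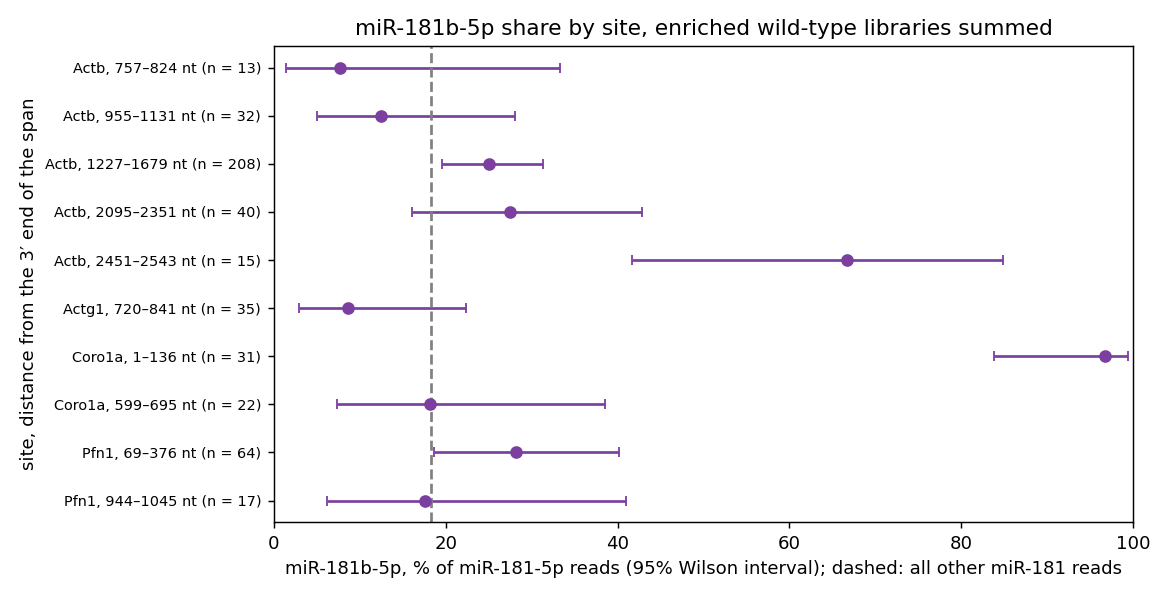
miR-181b-5p as a share (%) of miR-181-5p reads at the 10 sites with at least 10 such reads in the wild-type enriched libraries (3 libraries summed; bars, 95% Wilson intervals; n, miR-181 reads), with the share in all other miR-181 reads as a dashed line at 18.3%. The Coro1a site at the end of the span is at 96.8% and the Actb site at 2451 to 2543 nt at 66.7%, and 6 of the 10 intervals include the dashed line.

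Of the remaining genes, Tmsb10, Tmsb4x and Cfl1 had no site with at least 30 reads, and Actg1 had 1. In the Ago2 IP, the miR-17/20/93 family led in Tmsb10, with 15 of 39 reads (38.5%, Wilson interval 24.9% to 54.1%), and in Tmsb4x, with 9 of 31 (29.0%, interval 16.1% to 46.6%), where miR-142a-3p had 8. In Cfl1 miR-15/16 had 11, miR-17/20/93 8 and miR-18 6 of 49 reads, and let-7 and miR-142a-3p had 4 each. In Actg1 miR-142a-3p had 8, miR-181 7 (7 of 17 in wild type and 0 of 9 in the knockout) and let-7 4 of 26 reads. In contrast to Actb and Coro1a, let-7 was thus at 15.4% of Actg1 reads. The interval of 6.15% to 33.5% reaches from below the let-7 share in the other reads to above it.

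The comparison of genotypes in the Ago2 IP asks which contacts change without Mir181a-1 and Mir181b-1. Per gene, 164 of 1615 genes tested were called at an adjusted p of at most 0.05 (10.2%; edgeR quasi-likelihood test, Benjamini-Hochberg), 3.41% higher and 6.75% lower in the knockout. DESeq2 called 5 higher and 53 lower, in place of 55 and 109. None of the 4 members that passed the filter on low counts was called, and 1 of them, Actb, had an unadjusted p under 0.05. DESeq2 called none of the 4 either. Actg1, Tmsb4x and Tmsb10 had too few reads to be tested.

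Actb was 1975 ± 273 rpm in the wild-type and 2604 ± 183 rpm in the knockout Ago2 IP, without overlap, as were 25.9% of genes tested. The log2 fold change was 0.34 (SE 0.12, edgeR adjusted p = 0.0655). With library totals in place of trimmed means (TMM) for scaling it was 0.37 and passed (adjusted p = 0.0448), the only alternative to do so. Counting only reads of miRNAs outside the miR-181 family, scaled on their own total, Actb changed by -0.02 (SE 0.12, edgeR adjusted p = 0.974). In that fit 2.29% of 1396 genes were called, 0.788% higher and 1.5% lower, and none of the 3 members tested, with none at an unadjusted p under 0.05 and none by DESeq2. Pfn1 was 0.45 (SE 0.27, adjusted p = 0.325), Cfl1 0.37 (SE 0.46, adjusted p = 0.722) and Coro1a 0.66 (SE 0.37, adjusted p = 0.282) with all miRNAs. With the other miRNAs alone, Pfn1 was at 0.43 (adjusted p = 0.601) and Coro1a at 0.68 (adjusted p = 0.506).

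By site, 36.3% of 251 sites were called between genotypes in the Ago2 IP, 10.8% higher and 25.5% lower. Library totals alone gave 43 higher and 62 lower, and DESeq2 8 and 59, in place of 27 and 64. None of the 3 member sites tested was called, and none passed at an unadjusted p under 0.05 in edgeR or with DESeq2. The 177-nt Actb site had 602, 434 and 409 rpm in wild-type and 823, 591 and 768 rpm in knockout libraries, so that the groups overlapped (log2 fold change 0.38, SE 0.23, edgeR adjusted p = 0.207). The 453-nt site had 1290, 1419 and 1023 rpm, and 1612, 1464 and 1574 rpm, without overlap (0.15, SE 0.17, adjusted p = 0.507), as were 50.2% of sites tested. The larger Pfn1 site was at 0.15 (SE 0.36, adjusted p = 0.765). Without the filter on low counts these last 2 were at -0.086 and -0.090. With the other miRNAs alone 8.21% of 195 sites were called, 3.59% higher and 4.62% lower (7 and 9 sites, and with library totals alone 9 and 9). These 3 sites, of which none was called by either tool, were at 0.03, -0.14 and 0.31 (adjusted p = 0.968, 0.69 and 0.847).

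Reads of miR-181 itself were nearly absent from the 7 genes in the knockout Ago2 IP. They made up 2 of 645 reads, both in Actb, against 83 of 636 in wild type. The 6 genes other than Actb had 0 of 177 such reads, which allows a share of up to 1.695% by counting error. Outside Actb, miR-181 went from 31.2% in wild type to 1.39% in the knockout over all reads of these groups. The loss was thus not particular to the 7 genes. At Actb the share was 9.28% ± 0.478 and 0.41% ± 0.713, lower in each knockout library than in any wild-type one. That difference has an exact permutation p of 0.1, which 3 against 3 cannot go below, and an adjusted p of 0.133 over 4 tests. At Pfn1 the share was 27.5% in 2 wild-type and 0 in 3 knockout libraries with at least 10 reads (exact permutation p = 0.1, adjusted p = 0.133). At Coro1a it was 33.0% and 0 in 2 and 2 libraries (exact permutation p = 0.333, the lowest such a design gives).

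Among 67 other genes of actin assembly and turnover, 31 were tested in the Ago2 IP and 1 was called, beside 10.2% of all genes. This was Myh9, which encodes the heavy chain of non-muscle myosin IIA. It had 518, 304 and 614 rpm in wild type and 839, 798 and 825 rpm in the knockout, without overlap, as were 25.9% of genes tested (log2 fold change 0.77, SE 0.21, edgeR adjusted p = 0.0104). The call was lost with DESeq2 (adjusted p = 0.127), without the filter on low counts (0.69, adjusted p = 0.0732) and without wild-type library 2, the lowest of the 6 (0.53, adjusted p = 0.163). The median log2 fold change of the 31 was 0.08, beside 0.02 over all genes. With the other miRNAs alone 26 of the 67 were tested and 0 were called, with 2 at an unadjusted p under 0.05 in edgeR and 0 called by DESeq2.

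The same comparison after enrichment rests on 35 knockout reads in Actb and 31 in the other 6 genes together. Per gene, 5.5% of 2146 genes were called, 2.1% higher and 3.4% lower (45 and 73, with library totals alone 75 and 34, with DESeq2 43 and 24). None of the 4 members tested was called, of which 1, Actb, had an unadjusted p under 0.05. DESeq2 called none of them. Actb was at 457 ± 97.8 and 967 ± 217 rpm, without overlap, as were 28.5% of genes, and the fit gave 0.70 (SE 0.29, edgeR adjusted p = 0.199). With library totals alone it was 0.998 and passed (adjusted p = 0.0329). TMM lowered log2 fold changes by 0.33 (-0.33) here relative to totals. With knockout libraries 2 and 3 as 1 sample Actb was at 0.61 (adjusted p = 0.286). Actg1 (0.99, SE 0.56, adjusted p = 0.372), Pfn1 (0.72, adjusted p = 0.534) and Coro1a (-0.02, adjusted p = 0.996) did not pass either. Without knockout library 2, Actg1 was at -0.28 and Pfn1 at -0.41.

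By site, 16.4% of 805 sites were called after enrichment, 7.7% higher and 8.7% lower (62 and 70, with library totals alone 75 and 55, with DESeq2 58 and 42), and neither member site tested was. DESeq2 called neither, and the 453-nt Actb site had an unadjusted p of 0.049 in edgeR. It had 317, 327 and 206 rpm in wild type and 739, 415 and 585 rpm in the knockout, without overlap, as were 40% of sites (log2 fold change 0.83, SE 0.41, adjusted p = 0.158). The larger Pfn1 site was at 0.90 (SE 0.67, adjusted p = 0.398). Without the filter on low counts both turned, to -1.34 and -1.22, and the Pfn1 site was at -0.56 without knockout library 2. The miR-181 share of Actb reads was 95.4% ± 2.997 in 3 wild-type libraries and 39.3% ± 5.05 in the 2 knockout libraries with at least 10 reads (exact permutation p = 0.1, the lowest for 3 against 2, and adjusted p = 0.133). The rest of the same groups had 98.98% and 71.9% over their 3 libraries, so the share was lower in Actb than elsewhere in both, with no test. Of the 67 pathway genes 36 were tested, with Wdr1, a cofactor of cofilin, higher (2.09, edgeR adjusted p = 0.0179) and Iqgap1, a scaffold protein of the actin cortex, lower (-3.18, adjusted p = 0.0465), beside 2.1% and 3.4% of all genes. Both were named after their values were seen. Wdr1 did not pass without knockout library 1 (1.17, adjusted p = 0.562) or 3 (adjusted p = 0.115) or without the filter (adjusted p = 0.246). Iqgap1 did not pass with library totals alone (adjusted p = 0.0884), with DESeq2 (adjusted p = 0.171), or without knockout library 1 (adjusted p = 0.144) or 3 (adjusted p = 0.0642), and was at -7.96 without knockout library 2. Neither was called on leaving out any 1 of the wild-type libraries, where only 3 of the 67 genes were tested and 0 were called.

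Enrichment against the Ago2 IP in wild type was fitted on reads of all miRNAs, so it does not measure miR-181 contacts alone. At Actb, miR-181 had 43 of 472 reads before and 332 of 346 after enrichment. Outside Actb it made up 31.2% and 98.98% of reads. A fall in the rpm of a gene is thus not by itself a fall in its miR-181 contacts. Per gene, 36.1% of 3144 genes were called, 19.3% higher and 16.8% lower after enrichment. With library totals alone, 389 were higher and 1063 lower, in place of 606 and 528, since TMM raised log2 fold changes by 0.36. Of the 6 members tested, Actb and Cfl1 fell and Actg1 rose, while Tmsb10, Pfn1 and Coro1a did not pass. Tmsb4x was not tested.

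Actb went from 1975 to 457 rpm in the mean, a log2 fold change of -1.76 (SE 0.15, adjusted p = 1.34e-12 in edgeR), without overlap, as were 53.4% of genes. It fell under each alternative run, and with library totals alone the value was -2.12. Cfl1 fell by 1.15 (SE 0.41, adjusted p = 0.0237) and Actg1 rose by 1.02 (SE 0.36, adjusted p = 0.0247), both without overlap. These 2 calls rest on few reads. Cfl1 was lost with DESeq2 (adjusted p = 0.117), without the filter on low counts (adjusted p = 0.256) and without each of the wild-type libraries except enriched library 1, with adjusted p from 0.0562 to 0.186. Actg1 was lost with library totals alone (0.67, adjusted p = 0.141), with DESeq2 (adjusted p = 0.127), and without wild-type Ago2 IP libraries 1 and 2 or enriched library 2, with adjusted p of 0.0997, 0.0622 and 0.0831.

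Tmsb10 was at -1.06 (SE 0.43, edgeR adjusted p = 0.0648), Pfn1 at -0.59 (SE 0.26, adjusted p = 0.0766) and Coro1a at 0.22 (SE 0.31, adjusted p = 0.633). With library totals alone, Tmsb10 and Pfn1 passed as lower (adjusted p = 0.00972 and 0.00337) and Coro1a was at -0.14. In the knockout, where 21.4% of 828 genes were called, 15.6% higher and 5.8% lower, Actb also fell (log2 fold change -1.33, SE 0.24, adjusted p = 1.66e-06 in edgeR), without overlap, as were 41.5% of genes. With knockout enriched libraries 2 and 3 as 1 sample the value was -1.27 (adjusted p = 5.05e-06). Library totals alone called 122 genes higher and 103 lower there, and DESeq2 114 and 15, in place of 129 and 48. Pfn1, the only other member tested there, was at -0.24 (SE 0.50, adjusted p = 0.803). Whether the Actb change differed between genotypes was not tested.

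By site, 56.3% of 1200 sites were called between the wild-type enriched libraries and the Ago2 IP, 30% higher and 26.3% lower, and all 4 member sites tested were lower. With library totals alone, 655 sites were higher and 256 lower, in place of 360 and 316, and with DESeq2 242 and 309, and TMM here lowered log2 fold changes by 0.76 (-0.76). The 177-nt Actb site went from 602, 434 and 409 rpm to 34.1, 71.0 and 46.2 rpm, without overlap, as were 77% of sites. Its log2 fold change was -4.06 (SE 0.32, adjusted p = 8.15e-12 in edgeR). Of its wild-type reads, 3 of 119 in the Ago2 IP and 32 of 37 after enrichment were miR-181. The 453-nt site went from 1290, 1419 and 1023 to 317, 327 and 206 rpm and fell by 2.89 (SE 0.24, adjusted p = 2.82e-11), a call lost without the filter on low counts (-1.19, adjusted p = 0.152). The larger Pfn1 site fell by 1.75 (SE 0.36, adjusted p = 0.000159), and without the filter it was at -0.07 (adjusted p = 0.861).

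The Actb site chr5:142905210-142905466 changed by -1.114 on the log2 scale (SE 0.47, adjusted p = 0.045 in edgeR), with overlap between the groups: 93.3, 29.0 and 68.2 rpm in the Ago2 IP and 64.8, 47.3 and 46.2 rpm after enrichment. This call was lost with library totals alone (-0.35, adjusted p = 0.476), with DESeq2 (adjusted p = 0.0841), and without wild-type Ago2 IP library 1 (-0.38, adjusted p = 0.728) or 3 (adjusted p = 0.0557), and without the filter the value was 0.57 (adjusted p = 0.512).

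As a share of Actb reads, the 453-nt site had 62.9% ± 3.35 in wild type before and 61.8% ± 3.72 after enrichment (SD, n = 3), less apart than the spread between libraries (exact permutation p = 0.6, adjusted p = 0.75). The 177-nt site went from 24.4% ± 3.89 to 11.2% ± 3.52 and the site chr5:142905210-142905466 from 3.28% ± 1.67 to 11.8% ± 2.66, each without overlap but at an exact permutation p of 0.1, which this design cannot go below (adjusted p = 0.4 over 10 tests). Among the 67 pathway genes, 49 were tested for the enrichment in wild type, with 8 higher and 13 lower, beside 19.3% and 16.8% of all genes, and a median log2 fold change of -0.19 beside -0.04 over all genes. DESeq2 called 5 higher and 5 lower, and library totals alone 5 and 19. In the knockout 14 were tested, with Myl6, a light chain of non-muscle myosin, higher (3.93, edgeR adjusted p = 1.242e-08) and Dock2, an activator of Rac in blood cells, lower (-0.58, adjusted p = 0.0343), beside 15.6% and 5.8% of all genes. Both were named after their values were seen. In wild type the same enrichment gave 2.69 for Myl6 (SE 0.34, edgeR adjusted p = 2.24e-08) and -0.62 for Dock2 (SE 0.13, adjusted p = 0.000287), and the difference between genotypes was not tested. In the knockout Dock2 did not pass with DESeq2 (adjusted p = 0.11), without enriched knockout library 1 or 3 (adjusted p = 0.133 and 0.199), or with libraries 2 and 3 as 1 sample (adjusted p = 0.0951).

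The genes whose rpm over the 12 libraries was most like that of Actb, among 1203 with at least 200 reads, were ND4 (Pearson r of log2(rpm + 10) 0.963), Taok1 (0.948) and Gnas (0.946). ND4 is a subunit of respiratory complex I encoded in the mitochondrial genome. Taok1 had 1213 to 1375 rpm before and 324 to 469 rpm after enrichment in wild type. The 12 points share their libraries and fall into 4 groups, so that r holds differences between groups as well as between libraries.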

How the data were processed

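The deposited files hold unscaled read counts, made by the authors: a line stands for 1 chimeric read, with a 1-nt position, its strand and its miRNA. Per the labels, there is a file pair for each library. The submitters' processing notes name Bowtie2 2.4.5, SAMtools 1.11, STAR 2.7.10, UMI-tools 1.1.1, bedtools 2.30.0, mm10 and GRCm38.p6, with no role or order. The meaning of the position and the placing of reads that match several loci are not given in the sources used.

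Reads were counted per RefSeq gene span (on the gene's strand) and per site (positions joined at up to 20 nt). All genes or sites were fitted with edgeR 4.0.16 (quasi-likelihood test, TMM factors on totals of all chimeric reads, filterByExpr at 10 counts; R 4.3.3), over only the groups compared. Alternatives were library totals alone, DESeq2 1.42.0, no filter, repeated reads counted once, both strands, 50-nt joining, knockout enriched libraries 2 and 3 as 1 sample, a replicate block, let-7 reads left out of family shares and leaving out each library. Shares used exact permutation tests (Python 3.11.15, scipy 1.17.1), and intervals are 95% Wilson. In simulated Ago2 IP counts of 1604 genes, 45.4% of 86 genes changed by 1 and 100% of 82 changed by 2 on the log2 scale were called, with 0.07% of unchanged genes. The simulation used a dispersion set in advance, not taken from these libraries, and no change in miR-181 makeup. Its rates need not hold for the fits reported.

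The members and lists were chosen with earlier results of these data known. Named were all members, sites of 30 or more reads, miRNAs with at least 5% of a site's reads in a group of at least 20, at most 5 per site, pathway genes called in the Ago2 IP, and the 3 genes most like Actb. Wdr1, Iqgap1, Myl6 and Dock2 fall outside this rule and were named after their values were seen. Tests of family shares and the miR-181b makeup were chosen after values were seen. Same-numbered libraries did not deviate together in every pair (correlations from -0.17 to 0.24), so numbers were not taken to pair samples. Between the wild-type Ago2 IP and enriched libraries, same-numbered pairs had correlations of 0.24, 0.031 and 0.13. Pairs of unlike number had -0.18 to 0.035. Whether those libraries share a source was not tested. The enrichment fits treat them as unpaired, with the replicate block as an alternative.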

Additional observations from a re-analysis of the deposited data

Results flagged for a closer look

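A total of 8 reads lay on the strand of Actb within 500 nt past the 3′ end of its span, outside the reads counted for the gene and above the limit of 3 reads. Coro1a had 1 read there and the other 5 genes had 0.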

How the results depend on the processing

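Counts of called genes or sites moved by over 1.5 times under 3 settings and on leaving out 1 library. With DESeq2 the gene-level counts went from 164 to 58 between genotypes in the Ago2 IP, from 118 to 67 between genotypes after enrichment, from 1134 to 684 for the enrichment in wild type and from 32 to 8 with the other miRNAs, and the site-level count with the other miRNAs went from 16 to 9. Without the filter on low counts the gene-level counts were 283 after enrichment and 20 with the other miRNAs. The site-level counts were then 206 in place of 91 in the Ago2 IP, 1093 in place of 132 after enrichment, 2091 in place of 676 for the enrichment and 6 in place of 16 with the other miRNAs. More genes and sites are tested without the filter, so these counts are not over the same features. Between genotypes after enrichment, 65 in place of 36 of the 67 pathway genes were tested. With repeated reads counted once, 435 sites were called for the enrichment, and the miR-18 share in Actb differed by -0.547 points (exact permutation test, adjusted p = 0.0357). Leaving out 1 library gave 71 to 122 genes after enrichment (71 without wild-type library 2), 57 to 152 sites after enrichment (63, 57 and 67 without wild-type libraries 1, 2 and 3, 83 without knockout library 1) and 16 to 27 genes with the other miRNAs (18 and 16 without knockout Ago2 IP libraries 1 and 2). The filter passes other features when a library is left out, so these counts are not over the same ones. After enrichment 36 of the 67 pathway genes were tested with all libraries. Only 3 were tested without any 1 wild-type library, and 49 to 51 without a knockout one. The difference in miR-18 share between the large Actb sites was 0 to 0.132 points (0.0000 without wild-type Ago2 IP library 1). With let-7 reads left out, an alternative chosen after the data were seen, family shares in Actb against the rest differed by 21.6 points for miR-142a-3p and 0.239 for miR-18, both reversed, and by -7.54 for miR-181 and -2.40 for miR-15/16, and miR-142a-3p between the large sites by -25.1, none of which passed (exact permutation test, adjusted p = 0.0938, and 0.7125 for miR-18). None of the reversed values that follow was called in the fits reported, except that of the Actb site chr5:142905210-142905466 for the enrichment. Coro1a between genotypes after enrichment was 0.27 with library totals alone, 0.029 with DESeq2 and 0.085 with repeated reads counted once, and its enrichment in wild type was -0.14 with library totals alone. Without the filter, the 453-nt Actb site and the larger Pfn1 site were at -0.086 and -0.090 between genotypes in the Ago2 IP and at -1.34 and -1.22 after enrichment, and the Actb site chr5:142905210-142905466 at 0.57 for the enrichment. Leaving out 1 library gave, between genotypes after enrichment, -0.28 to 1.19 for Actg1, -0.41 to 0.74 for Pfn1 and -0.56 to 0.74 for the larger Pfn1 site, each lowest without knockout library 2. In the Ago2 IP it gave -0.065 to 0.19 for the 453-nt Actb site and -0.25 to 0.37 for the larger Pfn1 site. With the other miRNAs it gave -0.096 to 0.054 for Actb and -0.081 to 0.33 for the 177-nt Actb site. The cause was not tested for any of these. With the replicate number as a block (the numbers were not taken to pair the libraries), the calls were 129, 100, 1267 and 168 for the gene-level comparisons of genotypes in the Ago2 IP and after enrichment and the enrichment in wild type and knockout. They were 91, 106 and 723 for the site-level ones, and 27 genes and 15 sites with the other miRNAs. The block changed the call of 1 member site, chr5:142905210-142905466 (-1.02, edgeR adjusted p = 0.0643), and of Iqgap1 after enrichment (-3.23, adjusted p = 0.0522), and no other call of a gene or site named. That site was at -1.02 (adjusted p = 0.0507) with positions joined at up to 50 nt, and Tmsb10 passed with both strands counted (-1.12, adjusted p = 0.0468). Depth limits the enriched knockout libraries most, where 3 reads are 156 to 439 rpm.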
